A study of Mus musculus with 35 samples.

Results

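The genotype dependence of the response to lipopolysaccharide (LPS) was measured in bone marrow-derived macrophages (BMDMs) as an interaction on the log2(FPKM + 1) scale, that is, the change from vehicle to LPS in AMPKa1-/- cells minus the same change in wild-type (WT) cells. FPKM is the number of fragments scaled to gene length and library size. A positive interaction means that a gene ended higher, relative to its vehicle level, in AMPKa1-/- BMDMs. The contrast used 11 of the 35 RNA-seq libraries of the series, namely WT vehicle (replicates 1 to 3), WT LPS (replicates 2 and 3), AMPKa1-/- vehicle (replicates 1 to 3) and AMPKa1-/- LPS (replicates 1 to 3). WT LPS replicate 1 was not analysed here. A total of 11360 genes had a mean of at least 1 FPKM over these libraries and were tested.

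All mice were on the C57BL/6 strain. Bone marrow was differentiated in L929-conditioned medium, a source of macrophage colony-stimulating factor, and the BMDMs then received DMSO as vehicle or 100 ng/ml LPS for 24 h. The labels give the AMPKa1-/- genotype without the promoter, cell type or exon of the deletion, and the study's methods describe adult mice of both sexes. N values are stated to be cultures of individual mice, but the labels do not say what a replicate number marks, so the p-values below measure the spread between these samples. The spacing of the smallest FPKM values put the 11 libraries at 16805391 to 23821663 fragments each.

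LPS is sensed by Toll-like receptor 4 on the macrophage surface, which signals through MyD88 to NF-kB and MAP kinases and through TRIF to interferon regulatory factors. The outcome is a burst of cytokines and chemokines, a secondary interferon response and a shift of metabolism towards glycolysis. AMP-activated protein kinase (AMPK) is the cell's main sensor of low energy, a complex of a catalytic alpha subunit with beta and gamma subunits, and AMPKa1, encoded by Prkaa1, is the main catalytic form in macrophages. AMPK is known for restraining anabolic pathways and for favouring fatty acid oxidation, autophagy and anti-inflammatory functions.

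The label was examined first. Prkaa1 measured 15.9, 11.8 and 15.3 FPKM in the WT vehicle libraries and 14.8, 16.5 and 15.4 FPKM in the AMPKa1-/- vehicle libraries. With LPS it measured 15.3 and 10.4 FPKM in WT and 9.05, 11.2 and 10.5 FPKM in AMPKa1-/- BMDMs. The genotypes overlapped, so the gene-level value does not check the label, and a transcript that lacks only some exons would still be counted. Other genes did separate the libraries by label. Eno1b, a retrogene copy of the glycolytic enzyme enolase, measured 63.4, 79 and 71.2 FPKM in WT vehicle and 130 and 144 FPKM in WT LPS, against at most 0.37 FPKM in each of the 6 AMPKa1-/- libraries. Since Eno1b and Eno1 are near-identical, their reads may be split uncertainly, but every library followed its label.

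The cells carried macrophage identity in both genotypes. All 10 macrophage markers, among them Adgre1, Csf1r, Cd68 and Spi1, averaged at least 1 FPKM, and Lyz2, which encodes lysozyme, was the most abundant with 10300 to 29600 FPKM. Of 10 neutrophil markers 5 averaged at least 1 FPKM, with Camp as the most abundant. Their sum was 32.6, 1.85 and 7.49 FPKM in WT vehicle, 41.4, 24.2 and 8.64 FPKM in AMPKa1-/- vehicle, and 126 to 161 FPKM in the LPS libraries. The 7 fibroblast and stromal markers, led by Lum with at most 6.43 FPKM, summed to 18.6, 1.52 and 10.1 FPKM in WT vehicle but to 1.71, 3.16 and 1.71 FPKM in AMPKa1-/- vehicle, and to 18.2 and 18.7 FPKM in WT LPS against 9.7, 14.5 and 13.6 FPKM in AMPKa1-/- LPS. The 6 osteoclast markers, led by Acp5, which macrophages also express, summed to 47.9, 27 and 38.6 FPKM in WT vehicle and 20.7, 24 and 27.9 FPKM in AMPKa1-/- vehicle, and to 208 and 196 FPKM in WT LPS against 128, 172 and 149 FPKM in AMPKa1-/- LPS, where the genotypes did not overlap. The 8 T and NK cell markers, led by Cd4, summed to 18.2, 16 and 15.9 FPKM in WT vehicle and 11.4, 11.8 and 6.79 FPKM in AMPKa1-/- vehicle, and to 1.35 and 0.827 FPKM in WT LPS against 0.728, 0.676 and 0.609 FPKM in AMPKa1-/- LPS, without overlap at either treatment. The 6 B cell markers, led by Ighm, overlapped in vehicle and summed to 3.51 and 4.47 FPKM in WT LPS against 2.76, 1.51 and 1.26 FPKM in AMPKa1-/- LPS, without overlap. The part of these cells in the results was not tested. In these bulk samples, fewer cells of a type and less RNA per cell cannot be told apart.

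Some libraries stood apart from their groups. On the second principal component, which held 3.674% of the variance against 86.5% on the first, WT vehicle replicate 2 scored -7.757, among the AMPKa1-/- libraries (-23 to -5.655), whereas the 4 other WT libraries scored 15.54 to 21.71. AMPKa1-/- LPS replicate 3 correlated with the 2 other libraries of its group at r = 0.9772 and 0.978 across genes, and those correlated with each other at r = 0.9896. Saa3, an acute-phase protein, took 3.74% of the FPKM of that library and 5.51% to 7.58% in the 4 other LPS libraries. Libraries also differed in the balance of long and short genes. The median deviation of the longest genes minus that of the shortest, from the mean of the libraries of the same treatment, was +0.275 on the log2 scale in WT LPS replicate 2, -0.215 in WT vehicle replicate 2 and -0.195 in AMPKa1-/- LPS replicate 1.

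The LPS response itself was large in both genotypes. In WT BMDMs 2444 genes rose (21.5%) and 4171 fell (36.7%), 58.2% of genes tested, by limma with an adjusted p under 0.05. In AMPKa1-/- BMDMs 2416 rose (21.3%) and 5151 fell (45.3%), 66.6% in all. These splits depend on scaling. With every library centred on one median, 3086 rose and 3397 fell in WT and 3557 rose and 3549 fell in AMPKa1-/- BMDMs, since the median change of all genes was -0.18 and -0.28 as deposited. A total of 2082 genes rose in both genotypes, 85.2% of the WT list and 86.2% of the AMPKa1-/- list, and 3929 fell in both, 94.2% and 76.3%. Across the 11360 genes, the slope of the AMPKa1-/- response on the WT response was 0.978 and the slope of the WT response on the AMPKa1-/- response was 0.962, with a Pearson correlation of 0.97 and a Spearman correlation of 0.94. The 3 AMPKa1-/- LPS libraries gave slopes of 0.958, 0.952 and 1.023. Genes are not independent replicates, and these values describe the shared size of the response.

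**Figure D1:**
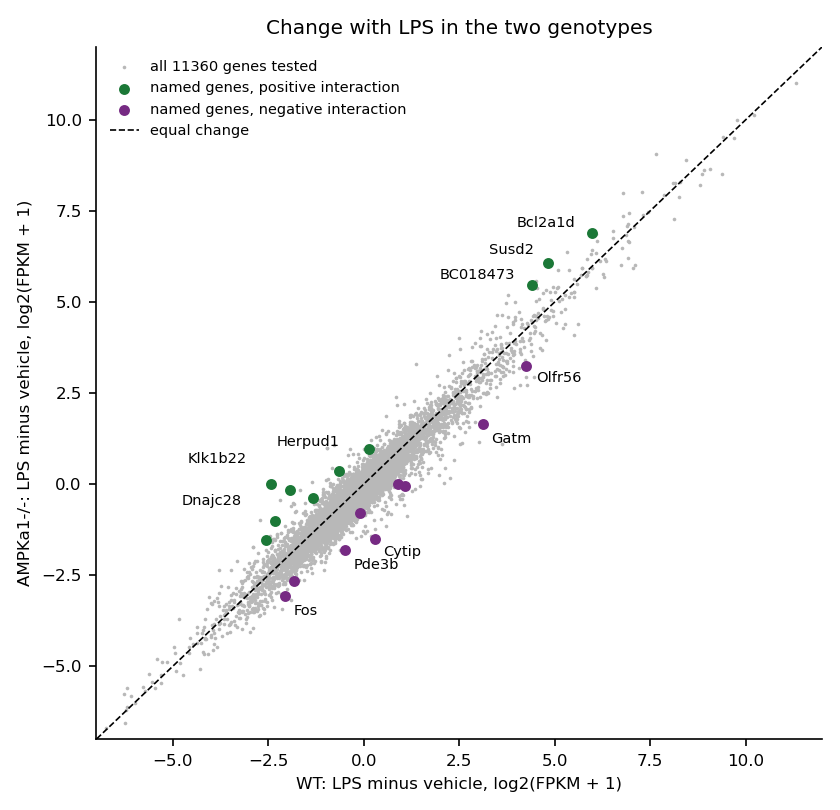
Change from vehicle to LPS on the log2(FPKM + 1) scale in WT (x axis) and AMPKa1-/- BMDMs (y axis); each grey point is 1 of the 11360 genes tested, the coloured points are named genes with the smallest interaction p in each direction, and the dashed line marks equal change. Most genes lie along the line, and Gatm lies furthest below it among the induced genes that are labelled.

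No gene passed the test for the interaction. In limma, 0 of 11360 genes (0% called) had an adjusted p under 0.05, and 730 (6.43%) had an unadjusted p under 0.05, of which 223 were positive (1.96%) and 507 negative (4.46%). Leaving out both AMPKa1-/- LPS replicate 3 and WT vehicle replicate 2, the libraries that stood apart, also gave 0 calls, with 938 genes at an unadjusted p under 0.05. Some alternatives did give calls, 22 without a filter on low values and 7 without AMPKa1-/- LPS replicate 2. Centred libraries, library weights and the omission of WT vehicle replicate 2 gave 1 call each, which was Klk1b22, listed at 0 in every AMPKa1-/- library. The median standard error was 0.22, and the median 95% interval, not adjusted over genes, reached 0.49 to each side. This half-width was 0.6 for genes of 1 to 5 FPKM and 0.41 for genes of 20 to 100 FPKM. A total of 150 genes had an estimated interaction larger than 1 in size, so a p that misses the threshold does not show that the genotypes responded alike for those genes. The changes of single LPS libraries from the vehicle mean of their genotype did not overlap for 1081 genes with the AMPKa1-/- libraries higher (9.52%) and 2593 with them lower (22.8%).

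The excess of negative values moved with gene length and scaling. The median interaction was 0.03 in the 2840 shortest genes, -0.07 in the 5679 of middle length and -0.23 in the 2841 longest, where 14 genes were positive and 204 negative at an unadjusted p under 0.05. With libraries centred on one median the split of all genes turned to 482 positive and 223 negative, and the median of all genes moved from -0.09 to 0.04. Values below are as deposited and should be read against that median of -0.09. The part of gene length in the results was not tested beyond an alternative with the length trend removed, in which again 0 genes were called.

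Gatm, which moves the amidino group of arginine to glycine in the first step of creatine synthesis, ended lower in AMPKa1-/- BMDMs with LPS. It measured 75.7, 75.4 and 65.5 FPKM in WT vehicle and 75.3, 73.1 and 60.7 FPKM in AMPKa1-/- vehicle. With LPS it reached 561 and 731 FPKM in WT and 183, 341 and 170 FPKM in AMPKa1-/- BMDMs, without overlap. The rise on the log2 scale was 3.13 in WT and 1.65 in AMPKa1-/- (adjusted p = 1.4e-06 and 6.7e-05), the interaction -1.49 (95% interval -2.24 to -0.74, adjusted p = 0.63) and the difference under LPS -1.54 (adjusted p = 0.046), which held in 2 of 11 fits that left out 1 library. AMPKa1-/- LPS replicate 2 was the highest of its group. Without it, the interaction of Gatm was -1.8 and was called (adjusted p = 0.0189).

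**Figure D2:**
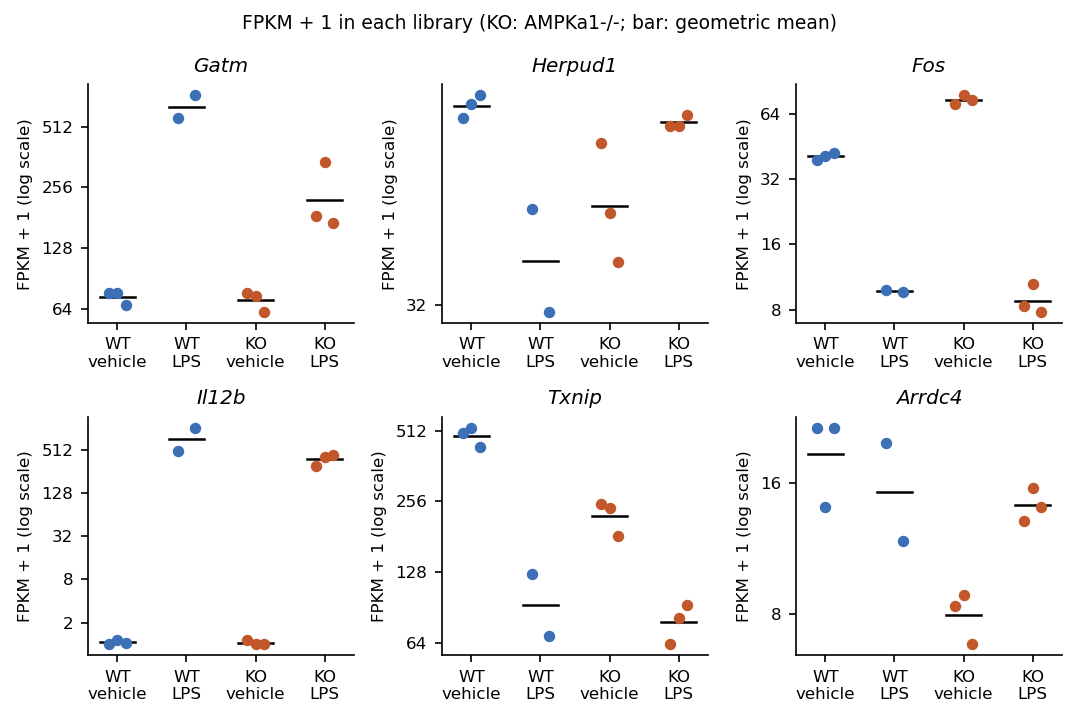
FPKM + 1 on a log scale in each of the 11 libraries for 6 genes, by genotype and treatment, with the bar at the geometric mean. Gatm is alike in vehicle and lower in AMPKa1-/- BMDMs with LPS, Herpud1 falls in WT and rises in AMPKa1-/- BMDMs, for Fos, Txnip and Arrdc4 the genotypes are apart in vehicle and overlap with LPS, and for Il12b the 2 WT LPS libraries lie above the 3 AMPKa1-/- LPS libraries.

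The enzymes of arginine and nitric oxide metabolism gave no common direction. Of 13 genes, 8 rose and 4 fell with LPS in each genotype, and the median interaction was -0.03. Nos2, the inducible nitric oxide synthase, measured 35.7 and 134 FPKM in WT LPS and 32.2, 46 and 48.3 FPKM in AMPKa1-/- LPS, which overlapped (interaction -0.71, 95% interval -1.89 to 0.48). The interaction of Nos2 was -1.65 without WT LPS replicate 2 and 0.23 without WT LPS replicate 3. Ass1, which regenerates arginine from citrulline, measured 36.5, 32.2 and 42.6 FPKM in WT vehicle, 118, 83.8 and 43.2 FPKM in AMPKa1-/- vehicle, 538 and 594 FPKM in WT LPS and 695, 665 and 574 FPKM in AMPKa1-/- LPS (interaction -0.83, 95% interval -1.75 to 0.09). The interaction of Ass1 was -1.22 without AMPKa1-/- vehicle replicate 3 and -0.51 without AMPKa1-/- vehicle replicate 1. Srm, spermidine synthase, had an interaction of 0.34 (95% interval -0.14 to 0.81), which was 0.22 without AMPKa1-/- LPS replicate 2.

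In a further group of genes the genotypes did not overlap in vehicle and overlapped with LPS. The share of all genes with this pattern was not counted. Fos, a subunit of the AP-1 transcription factor, measured 38.2, 39.9 and 40.9 FPKM in WT vehicle and 69.8, 76.6 and 73 FPKM in AMPKa1-/- vehicle (difference 0.87, adjusted p = 0.0097). With LPS it fell to 8.83 and 8.61 FPKM in WT and to 7.29, 9.48 and 6.81 FPKM in AMPKa1-/- BMDMs, where the groups overlapped (difference -0.15, adjusted p = 0.59). Its interaction of -1.01 (95% interval -1.38 to -0.64, adjusted p = 0.34) had the smallest p among negative values. Without AMPKa1-/- LPS replicate 2 it was -1.14 and was called (limma, adjusted p = 0.0189). Dusp1, a phosphatase that switches off MAP kinases, followed the same order with 22.3, 15.8 and 16.6 FPKM in WT vehicle, 28, 32.8 and 32.7 FPKM in AMPKa1-/- vehicle, and 48.4 and 55.5 against 37.5, 52.3 and 52 FPKM with LPS (interaction -0.9, 95% interval -1.42 to -0.38, adjusted p = 0.75). Cytip, an adaptor that regulates leukocyte adhesion, measured 8.34, 11.1 and 7.12 FPKM in WT vehicle and 22.5, 34.6 and 21.9 FPKM in AMPKa1-/- vehicle, and 7.15 to 15.4 FPKM over the 5 LPS libraries (interaction -1.79, 95% interval -2.63 to -0.96, adjusted p = 0.63). Of these 3 vehicle differences, that of Fos was called, and those of Dusp1 (0.75) and Cytip (1.46) had adjusted p = 0.13 and 0.056.

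Of the remaining genes with the smallest negative p, Pde3b, a phosphodiesterase that degrades cyclic AMP, fell in AMPKa1-/- BMDMs by 1.82 (adjusted p = 4.8e-06) and changed by -0.48 in WT (adjusted p = 0.057), with an interaction of -1.34. Asph, a hydroxylase of aspartyl and asparaginyl residues, fell in both genotypes, by 1.83 and 2.65 (interaction -0.82, and -0.49 with the gene length trend removed). Usp22, the deubiquitinase of the SAGA complex, fell by 0.8 in AMPKa1-/- (adjusted p = 4e-05) and changed by -0.11 in WT (adjusted p = 0.44; interaction -0.69). Arhgef40, an exchange factor for small GTPases, rose by 1.07 in WT (adjusted p = 0.00039) and changed by -0.05 in AMPKa1-/- BMDMs (adjusted p = 0.8, interaction -1.12). Without AMPKa1-/- LPS replicate 2 this interaction was -1.32 and was called (limma, adjusted p = 0.0471). Gm4735 and Olfr56 were also among them. Olfr56, annotated as an olfactory receptor, measured 17.6 and 24.8 FPKM in WT LPS and 9.77, 11.1 and 9.73 FPKM in AMPKa1-/- LPS. All the named negative genes had changes that did not overlap between the genotypes, which the choice by smallest p favours, and their adjusted p ran from 0.34 to 0.63.

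Among the 10 genes with the smallest positive p, several were weakly expressed in AMPKa1-/- BMDMs from the start. Klk1b22, a kallikrein of a large family of near-identical copies, measured 10.9, 5.71 and 7.91 FPKM in WT vehicle and 0.88 and 0.442 FPKM in WT LPS, and was listed at 0 in all 6 AMPKa1-/- libraries (interaction 2.44, 95% interval 1.78 to 3.1, adjusted p = 0.066). In limma, the interaction of Klk1b22 was called in 2 of 11 fits that left out 1 library and in 3 of 12 other alternatives. Its adjusted p was 0.0154 without WT vehicle replicate 2 and 0.0199 with libraries centred on one median. Over the other alternatives it reached 0.752. Klk1b22 passed the filter through WT alone, so its interaction is the fall in WT and says nothing of the response in AMPKa1-/- BMDMs. Dnajc28, a DnaJ family protein, measured 9.91, 7.08 and 7.44 FPKM in WT vehicle, 1.75 and 1.07 FPKM in WT LPS and 0.21 to 0.631 FPKM over the AMPKa1-/- libraries (interaction 1.75, adjusted p = 0.2). Its low AMPKa1-/- levels left little room to fall. Dkk2, a secreted Wnt antagonist, and Chp2, a calcineurin B homologue, measured 3.28 to 4.68 and 4.14 to 6.14 FPKM in WT vehicle and 0.825 to 1.24 and 1.77 to 2.05 FPKM in AMPKa1-/- vehicle, and both were listed at 0 in both WT LPS libraries. The vehicle level was lower in AMPKa1-/- BMDMs in each of the 4 genes, by a difference of -3.16 for Klk1b22, -2.61 for Dnajc28, -1.27 for Dkk2 and -1.01 for Chp2, and these differences passed the test (adjusted p = 2e-05, 2.8e-05, 0.0051 and 0.02). With LPS the same differences were -0.72, -0.86, 0.03 and 0, and none of the 4 passed.

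Induced genes made up another part of the positive set. Susd2, a sushi-domain surface protein, reached 39.9 and 34.9 FPKM in WT LPS and 77.2, 64.7 and 87.3 FPKM in AMPKa1-/- LPS from at most 0.782 FPKM in any vehicle library (interaction 1.26, 95% interval 0.63 to 1.88, adjusted p = 0.63). BC018473 reached 30.4 and 27.9 FPKM in WT and 54.2, 57.7 and 70.3 FPKM in AMPKa1-/- BMDMs (interaction 1.06, 95% interval 0.58 to 1.54, adjusted p = 0.61), and its difference under LPS was 1.03 (adjusted p = 0.046, close to the threshold). Bcl2a1d, a relative of the survival factor BCL-2 with near-identical copies, rose by 5.97 in WT and 6.88 in AMPKa1-/- (interaction 0.91). Rilpl2, which binds Rab GTPases, measured 37.5 to 48.7 FPKM in WT vehicle and 48.9 FPKM in both WT LPS libraries, but went from 36.4, 32.1 and 27.4 to 69, 60.8 and 58.9 FPKM in AMPKa1-/- BMDMs (interaction 0.82). Ly9, a surface receptor of the SLAM family, fell by 1.32 in WT and by 0.37 in AMPKa1-/- (interaction 0.95). Herpud1, a component of endoplasmic reticulum-associated degradation, fell by 0.64 in WT and rose by 0.35 in AMPKa1-/- BMDMs (interaction 0.99, 95% interval 0.54 to 1.44, adjusted p = 0.61).

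Herpud1 was thus called in opposite directions in the 2 genotypes. So was Mir1898, a short microRNA gene whose FPKM rests on few fragments, picked out here after its values were seen. It rose by 1.12 in WT (adjusted p = 0.028) and fell by 0.89 in AMPKa1-/- BMDMs (adjusted p = 0.042), with an interaction of -2.01 (95% interval -3.16 to -0.86, adjusted p = 0.75).

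Of the readout genes fixed for TLR4 signalling, those given here rose in both genotypes except Il10, and their intervals were wide. Tnf went from 11.2, 7.75 and 12.5 to 331 and 455 FPKM in WT and from 10.7, 9.93 and 13.8 to 336, 247 and 780 FPKM in AMPKa1-/- BMDMs, with overlapping levels (interaction -0.08, 95% interval -1.23 to 1.07). Il6 reached 489 and 524 FPKM in WT and 369, 269 and 647 FPKM in AMPKa1-/- LPS (interaction -0.35, 95% interval -1.17 to 0.46). Il1b reached 13900 and 16700 FPKM against 15100, 13800 and 11200 FPKM (interaction -0.33, 95% interval -1.58 to 0.92). Within this set, AMPKa1-/- LPS replicate 3 was the highest AMPKa1-/- LPS library for Tnf and Il6 and the lowest for Il1b. These intervals allow differences of about 1 on the log2 scale in either direction for Tnf and do not show that the genotypes responded alike. Single libraries moved these values, with Tnf at -0.56 without AMPKa1-/- LPS replicate 3 and 0.27 without AMPKa1-/- LPS replicate 2. The same omissions gave -0.7 and -0.07 for Il6, and Il1b had -0.74 without AMPKa1-/- vehicle replicate 2 and 0.23 without AMPKa1-/- vehicle replicate 1.

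Il12b, the p40 subunit shared by interleukins 12 and 23, had an interval that did not include 0. It was at most 0.156 FPKM in all 6 vehicle libraries and reached 484 and 1040 FPKM in WT LPS against 305, 406 and 435 FPKM in AMPKa1-/- LPS, without overlap (interaction -0.88, 95% interval -1.66 to -0.11, adjusted p = 0.75). The value for Il12b depended on the WT LPS libraries, with -1.43 without replicate 2 and -0.33 without replicate 3. For Cxcl10, a chemokine for T cells, the interaction was -0.62 (95% interval -1.89 to 0.66), for Ccl5 0.13 (-1.24 to 1.49) and for Ptgs2, the inducible cyclooxygenase, -0.19 (-1.02 to 0.64). Acod1, which makes itaconate, had -0.41 (-1.45 to 0.63), Saa3 -0.29 (-2.13 to 1.56) and the antiviral gene Ifit1 0.2 (-1.06 to 1.46). These estimates were no firmer, and Ccl5 went from -0.6 without WT LPS replicate 2 to 0.86 without WT LPS replicate 3. Over the alternatives Cxcl10 ranged from -1.03 to -0.21, Ptgs2 from -0.51 to 0.01, Acod1 from -0.75 to -0.03, Saa3 from -0.81 to 0.3 and Ifit1 from -0.27 to 0.49. Il10, an anti-inflammatory cytokine, measured 2.53, 6.81 and 3.9 FPKM in WT vehicle and 2.26 and 1.51 FPKM in WT LPS, and 2.83, 5.21 and 2.32 against 1.15, 2.89 and 1.5 FPKM in AMPKa1-/- BMDMs (interaction 0.2, -0.88 to 1.29). Neither LPS change of Il10 passed the test, and its interaction ranged from -0.1 without WT vehicle replicate 2 to 0.47 over the alternatives. Ifnb1, interferon beta, was under the level for testing, with at most 1.07 FPKM in any library.

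**Figure D3:**
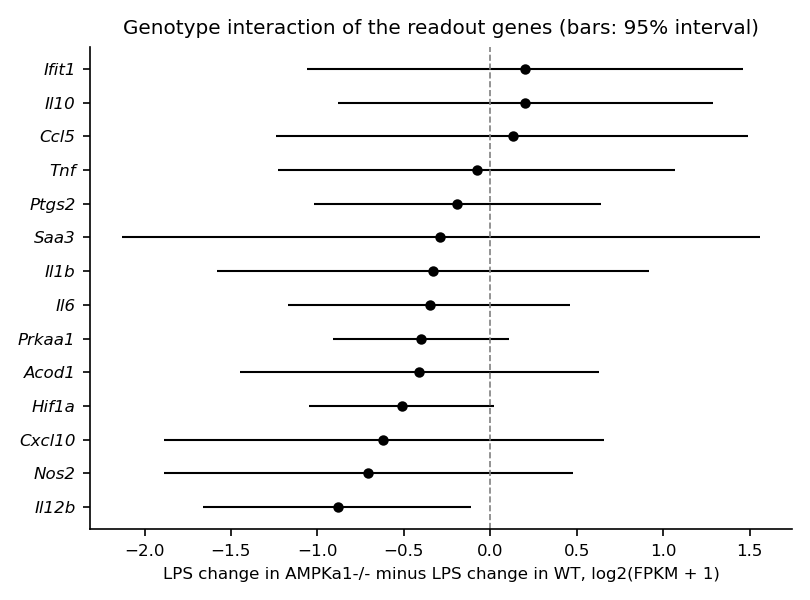
Interaction on the log2(FPKM + 1) scale for readout genes that were tested, with 95% intervals from the fit on 11 libraries; the dashed line marks equal change in both genotypes. Of the readouts drawn, Il12b has an interval that lies below 0.

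Gene lists were described by their counts and medians, with no test of the list, beside a median interaction of -0.09 for all genes, and 0 members of any list were called for the interaction. Counts of negative members should be read against 7280 negative of 11360 genes tested, and counts of genes that fell against 36.7% of all genes in WT and 45.3% in AMPKa1-/- BMDMs. Members named from the lists had an adjusted p of 0.75 for the interaction unless another value is given. Among signalling genes, the TLR4 receptor and adaptors (18 tested) had a median of -0.14, which was -0.25 without WT LPS replicate 3 and -0.05 without WT LPS replicate 2. The NF-kB subunits and feedback inhibitors (23 tested) had a median of -0.23, with 20 negative and 3 positive, although the median of the LPS changes was higher in AMPKa1-/- (2.02) than in WT (1.89). Their median interaction was -0.37 without AMPKa1-/- LPS replicate 3 and -0.12 without AMPKa1-/- LPS replicate 1. Besides Dusp1, Tnip3, an A20-binding inhibitor of NF-kB, had an interaction of -0.92 (95% interval -1.66 to -0.19). Dusp16, another MAP kinase phosphatase, had -0.52 (-1 to -0.03). Of the AMPK subunits and upstream kinases (11 tested), 5 fell in WT and 7 in AMPKa1-/- BMDMs (median interaction -0.26, from -0.31 without WT vehicle replicate 1 to -0.15 without WT LPS replicate 2). Prkag2, the gamma 2 subunit, fell by 2.34 and 2.84 (interaction -0.5, 95% interval -0.87 to -0.12).

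Interferon, cytokine and chemokine lists rose nearly throughout. All 35 interferon-stimulated antiviral genes rose in both, with median changes of 3.54 in WT and 3.47 in AMPKa1-/- and a median interaction of 0, and 14 of 15 interferon-inducible GTPases rose in each (median -0.05). Of 21 pro-inflammatory cytokines and enzymes 19 rose in each genotype (median -0.08), and of 22 chemokines 19 rose in each (median 0.02). None of these 4 medians had a firm sign. Leaving out 1 library gave -0.26 to 0.19 for the antiviral genes and -0.31 to 0.08 for the GTPases, and -0.24 to 0.15 for the pro-inflammatory genes and -0.21 to 0.13 for the chemokines, with the lowest value without AMPKa1-/- vehicle replicate 3 in all but the GTPases, where it was without AMPKa1-/- LPS replicate 3. The extremes of the chemokines lay in opposite directions. Cx3cl1, the membrane-bound fractalkine, reached 4.65 and 1.26 FPKM in WT LPS and 5.13, 7.99 and 24.1 FPKM in AMPKa1-/- LPS (interaction 1.92, 95% interval 0.43 to 3.41), and Cxcl9, an interferon-gamma target, reached 10.7 and 44.9 FPKM in WT LPS and 7.79, 5.12 and 4.6 FPKM in AMPKa1-/- LPS (interaction -1.58, 95% interval -2.85 to -0.31). The value for Cxcl9 was -2.56 without WT LPS replicate 2 and -0.59 without WT LPS replicate 3, and that for Cx3cl1 was 1.26 without WT LPS replicate 3. The alternative activation markers (14 tested) had a median of -0.02.

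Some metabolic and ribosomal lists lay away from the median of all genes, by amounts that depended on single libraries. HIF1 and its targets had a median interaction of -0.49, with 17 of 18 genes negative and none at an unadjusted p under 0.05. Hif1a itself, the oxygen-regulated subunit, reached 136 and 122 FPKM in WT LPS and 132, 115 and 83.4 FPKM in AMPKa1-/- LPS (interaction -0.51, 95% interval -1.05 to 0.02). The median of the list was -0.17 without AMPKa1-/- LPS replicate 3. Glycolysis genes (24 tested), many of which are HIF1 targets as well, had a median of -0.05. Cytosolic ribosomal protein genes had a median of 0.24 with 47 of 47 positive and none at an unadjusted p under 0.05; 35 of them fell in WT and 22 in AMPKa1-/- BMDMs. This median was 0.08 without AMPKa1-/- vehicle replicate 3 and 0.11 with quantile normalization. The nuclear-encoded respiratory chain had a median of 0.1 with 52 of 70 positive, and -0.01 without WT LPS replicate 2. Ribosomal and many respiratory chain genes are short, and libraries differed in the balance of long and short genes. With the length trend removed the medians of these lists changed little, to 0.22 and 0.09, and that of all genes was 0.01. The cause of the positive medians was not tested.

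Proliferation genes had a lower median change in AMPKa1-/- BMDMs. Of 30 cell cycle and DNA replication genes 24 fell in each genotype, with a median change of -1.12 in WT and -1.95 in AMPKa1-/-, and a median interaction of -0.46 with 27 negative. This median was -0.63 without WT vehicle replicate 2 and -0.3 without AMPKa1-/- vehicle replicate 2. Plk1, a mitotic kinase, measured 5.03, 9.17 and 6.22 FPKM in WT vehicle, 11.2, 10.1 and 10.8 FPKM in AMPKa1-/- vehicle, 0.564 and 0.827 FPKM in WT LPS and 0.506, 0.355 and 0.517 FPKM in AMPKa1-/- LPS, so that the genotypes did not overlap in vehicle (interaction -0.83, 95% interval -1.42 to -0.24). Cdk1, the kinase of mitotic entry, had an interaction of -0.84 (-1.53 to -0.14), and Ccne2, a cyclin of the entry into S phase, had -0.79 (-1.54 to -0.03).

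Redox genes lay on the other side. The 20 NRF2 targets and redox genes had a median interaction of 0.22 with 15 positive, which was 0.12 without WT vehicle replicate 1 and 0.39 without WT vehicle replicate 2. Nqo1, a quinone reductase, fell from 9.73, 7.09 and 8.8 to 2.36 and 1.19 FPKM in WT and from 10, 12.9 and 12.2 to 7, 4.11 and 9.16 FPKM in AMPKa1-/- BMDMs (interaction 1.04, 95% interval 0.23 to 1.85). Cat, catalase, fell to 54.9 and 49.1 FPKM in WT LPS and 132, 63.6 and 109 FPKM in AMPKa1-/- LPS from 261 to 310 FPKM in vehicle (interaction 0.8, 95% interval 0.11 to 1.5). Blvrb, biliverdin reductase B, fell by 0.87 in WT (adjusted p = 0.002) and changed by -0.05 in AMPKa1-/- BMDMs (adjusted p = 0.8; interaction 0.82, 95% interval 0.27 to 1.37). In each of these 3 genes the changes of single LPS libraries did not overlap. Of all genes tested, 9.52% did the same with the AMPKa1-/- libraries higher.

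Of the lipid lists, sterol and fatty acid synthesis (27 tested) had a median of 0.13, which ran from -0.11 without AMPKa1-/- LPS replicate 2 to 0.41 without AMPKa1-/- LPS replicate 3. The medians were closer to that of all genes for cholesterol efflux and LXR targets (14 tested, -0.09), fatty acid oxidation (22 tested, -0.06) and autophagy and lysosome (39 tested, 0.04). Nr1h3, the oxysterol receptor LXR alpha, reached 107 and 105 FPKM in WT LPS and 71.7, 63.3 and 71.6 FPKM in AMPKa1-/- LPS (interaction -0.42, 95% interval -0.75 to -0.09). Ch25h, which makes the LXR ligand precursor 25-hydroxycholesterol, had an interaction of -1.52 (95% interval -2.93 to -0.12). The remaining medians were 0.05 for the TCA cycle, 0 for mitochondrially encoded genes, -0.1 for mitochondrial biogenesis and mitophagy, -0.18 for anti-inflammatory mediators, -0.09 for class II presentation and costimulation, and 0 for mTORC1 and nutrient sensing. The class II median was -0.58 without AMPKa1-/- LPS replicate 3 and 0.13 without WT LPS replicate 3. Leaving out 1 library gave -0.29 to -0.05 for anti-inflammatory mediators and -0.31 to -0.03 for cholesterol efflux and LXR targets. The mitochondrially encoded genes ran from -0.2 to 0.16.

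**Figure D4:**
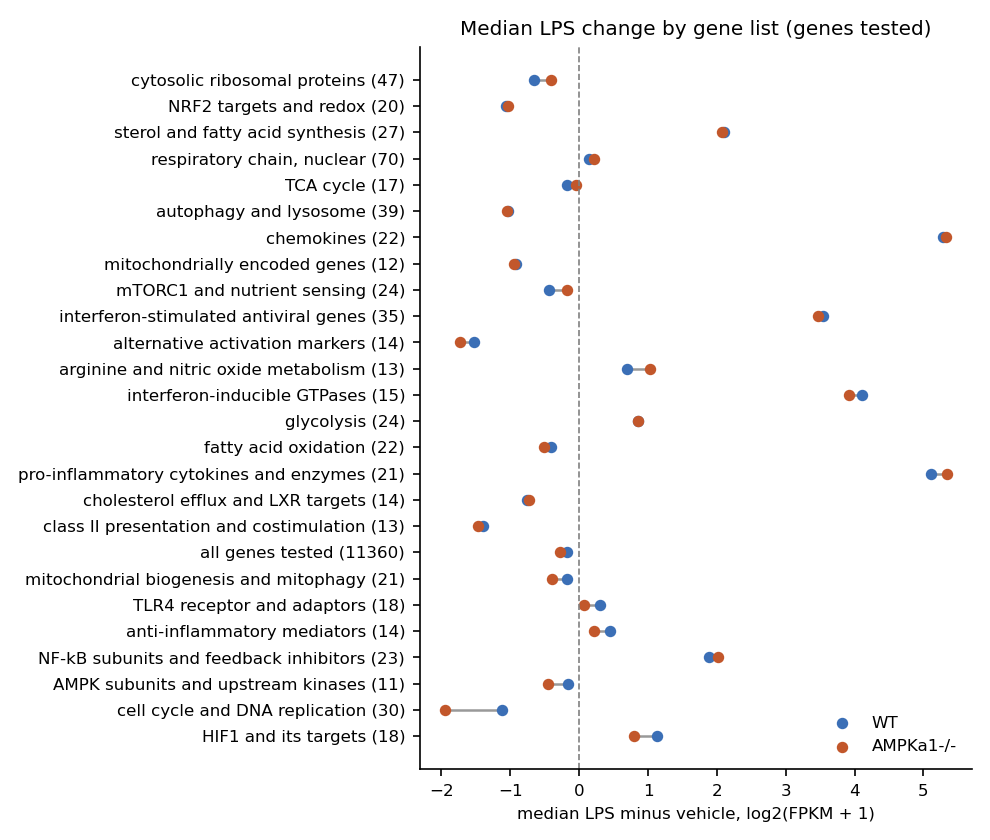
Median change from vehicle to LPS on the log2(FPKM + 1) scale for each gene list in WT (blue) and AMPKa1-/- BMDMs (orange), ordered by median interaction, with the number of genes tested in brackets. Cell cycle genes and HIF1 targets lie lower in AMPKa1-/- BMDMs, and cytosolic ribosomal protein genes lie higher.

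Within the nutrient-sensing list, Txnip and Arrdc4 were the most positive. Both are alpha-arrestins that curb glucose uptake and are transcriptional targets of the glucose-sensing factors MondoA and ChREBP, and Txnip protein is a known substrate of AMPK. Txnip measured 499, 526 and 433 FPKM in WT vehicle and 249, 239 and 182 FPKM in AMPKa1-/- vehicle, and 125 and 67.3 FPKM in WT LPS against 62.3, 80.5 and 92.1 FPKM in AMPKa1-/- LPS. The genotypes did not overlap in vehicle and overlapped with LPS (interaction 0.88, 95% interval 0.16 to 1.61, adjusted p = 0.75). Arrdc4 measured 20.4, 13.1 and 20.3 FPKM in WT vehicle and 7.36, 7.88 and 5.84 FPKM in AMPKa1-/- vehicle, and 18.7 and 10.8 FPKM against 12.1, 14.6 and 13.1 FPKM with LPS (interaction 1.12, 95% interval 0.42 to 1.81, adjusted p = 0.75). The differences in vehicle were -1.13 for Txnip and -1.22 for Arrdc4, which did not pass the test (adjusted p = 0.097 and 0.056).

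The promoters of both genes are shown because both interactions were positive, in the 250 bases before the start site (RefSeq, GRCm38.p6). The LPS changes themselves differed. Txnip fell in every LPS library, whereas Arrdc4 rose by 0.72, 0.96 and 0.83 in AMPKa1-/- LPS and changed by 0.09 and -0.65 in WT LPS. Both strands were searched for the interferon response element (GAAA, 2 free bases, GAAA), an NF-kB-like motif (GGGA, 4 free bases, CC), the CRE (TGACGTCA) and the E-box (CACGTG). After the sequences had been seen, a pair of E-box-like elements as in carbohydrate response elements (CACGNG, 5 free bases, CACGNG) was added. Capitals mark matches. The Txnip window (chr3:96557707-96557956, plus strand) held the E-box-like pair, which occurs in 0.0457% of the 32851 promoters of the table. The Arrdc4 window (chr7:68749239-68749488, minus strand) held an E-box, present in 6.02%, and an NF-kB-like match, present in 17.6%.
Txnip: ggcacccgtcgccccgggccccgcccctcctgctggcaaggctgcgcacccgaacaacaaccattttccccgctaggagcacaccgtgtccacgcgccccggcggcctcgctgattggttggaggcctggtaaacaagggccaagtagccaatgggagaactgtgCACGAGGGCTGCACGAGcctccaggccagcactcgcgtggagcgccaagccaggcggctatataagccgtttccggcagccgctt
Arrdc4: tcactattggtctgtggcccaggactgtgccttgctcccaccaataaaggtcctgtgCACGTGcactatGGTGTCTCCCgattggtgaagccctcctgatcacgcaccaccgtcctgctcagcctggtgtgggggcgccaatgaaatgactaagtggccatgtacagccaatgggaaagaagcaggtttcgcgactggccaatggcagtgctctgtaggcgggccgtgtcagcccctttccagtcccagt
A match is a description of the letters and not evidence of binding. Of the 20 genes of smallest p together with Txnip and Arrdc4, 14 of 22 were found in the promoter table, and 3 held the NF-kB-like match, 1 the interferon response element, 1 the E-box and 0 the CRE (2.98% and 1.55% of all promoters for the interferon element and the CRE).

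Direct comparison of the genotypes showed where they differed at each treatment. In vehicle 22 genes were called (0.194%), 9 higher (0.0792%) and 13 lower (0.114%) in AMPKa1-/- BMDMs. This count was 11 without WT vehicle replicate 1 and 34 without WT vehicle replicate 2, 49 with 8 or 12 groups in the fit and 215 with library weights. With LPS 29 genes were called (0.255%), 9 higher (0.0792%) and 20 lower (0.176%). A block on the replicate number, whose meaning the labels do not give, left 7 calls with LPS. With LPS the count depended on single libraries, with 77 genes without AMPKa1-/- LPS replicate 3 and 5 without WT LPS replicate 3, and 5 to 8 in 8 of the 11 fits that left out 1 library. Clstn1, Eno1b, Fblim1 and Gm4735 were called in all 11 of these fits and Zfp991 in 10, whereas Il10rb was called in 4 and BC018473, Ifnar1 and Smad3 in 2. The lists shared 7 lower genes, which are Eno1b, Gm4735, Fblim1, Pdpn, Zfp991, Zfp984 and Clstn1, and 1 higher gene, Acot7. Of the 43 genes called at either treatment 10 (23.3%) lie on chromosome 4, which holds 6.17% of the genes tested, whereas Prkaa1 lies on chromosome 15. Fblim1, a filamin-binding adhesion protein, measured 103, 177 and 99.2 FPKM in WT vehicle and 8.64, 9.75 and 10.5 FPKM in AMPKa1-/- vehicle, and 12.9 and 12.5 against 0.252, 0.383 and 0.14 FPKM with LPS (interaction 0.09, 95% interval -0.55 to 0.73). Clstn1, a transmembrane cadherin-like protein, was lower by 1.97 in vehicle and 1.65 with LPS.

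The genes called with LPS and not in vehicle included the receptor subunits Ifnar1 and Il10rb beside Gatm. Ifnar1, a chain of the type I interferon receptor, measured 136 and 124 FPKM in WT LPS and 68.3, 88.6 and 79.8 FPKM in AMPKa1-/- LPS (difference -0.72, adjusted p = 0.046), and in vehicle 114, 113 and 122 against 79.3, 81.2 and 81 FPKM, a difference of -0.52 that did not pass (adjusted p = 0.095; interaction -0.2, 95% interval -0.53 to 0.14). Il10rb, the shared chain of the interleukin 10 receptor, was lower by 0.87 with LPS (adjusted p = 0.027) and by 0.59 in vehicle (adjusted p = 0.073; interaction -0.29). Both lie on chromosome 16. For these genes, being called at 1 treatment alone does not show a genotype-dependent response. Smad3, a transducer of TGF-beta signals, was different in that the vehicle levels were alike, at 5.94, 8.21 and 6.95 FPKM in WT and 6.9, 6.81 and 7.32 FPKM in AMPKa1-/- BMDMs, and the LPS levels were 3.79 and 4.62 FPKM against 1.21, 1.99 and 0.81 FPKM (difference -1.18, adjusted p = 0.047; interaction -1.19, adjusted p = 0.63). Its interaction was not called, and the LPS difference held in 2 of 11 fits that left out 1 library. Under Dex the interaction of Smad3 was 0.25 (95% interval -0.66 to 1.16). Genes higher in AMPKa1-/- than in WT BMDMs with LPS were, besides Acot7, Kcnab2, Slc35e4, Myadm, Tuba4a, BC018473, mt-Rnr2, Rbfox2 and F2rl2, by 0.74 to 1.86.

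The same interaction was measured a second time in 12 libraries that share none with the first set, in which cells of both genotypes received 100 nM dexamethasone (Dex), a glucocorticoid, alone or with LPS (3 libraries in each group). Of 11173 genes tested 2 were called (0.0179%), 1 in each direction (0.00895%), and 1552 (13.9%) had an unadjusted p under 0.05, 618 positive (5.53%) and 934 negative (8.36%). Neither gene was called in most of the fits that left out 1 library. The count was 0 with a pseudocount of 0.1, with centred libraries and with either replicate block, and 996 with library weights. Gm14461 had an interaction of 1.87 (95% interval 1.36 to 2.38, adjusted p = 0.032) and Gm4735, a gene similar to enolase, had -1.61 (95% interval -2.07 to -1.16, adjusted p = 0.032). Without Dex they had 1.08 (95% interval 0.38 to 1.78) and -0.91 (-1.3 to -0.51). With LPS + Dex, Gm14461 was at most 0.25 FPKM in WT and 0.208 FPKM in AMPKa1-/- libraries. Its interaction there follows from the levels with Dex alone. Gm4735 was near 0 in every AMPKa1-/- library and passed the filter through WT alone, so its interaction is the rise in WT and says nothing of the response in AMPKa1-/- BMDMs, from 4.15 to 4.34 FPKM with Dex to 12.3 to 17.1 FPKM with LPS + Dex.

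Over all genes tested in both sets the sign of the interaction was shared by 36.2% of 10861, and of the 679 with an unadjusted p under 0.05 without Dex, 245 kept their sign under Dex, 63 of them with p under 0.05, while 34 had p under 0.05 in the opposite direction. Of 9 named positive genes that could be tested under Dex 8 kept the sign, 6 of these with an unadjusted p under 0.05. Of 8 named negative genes 4 kept it, 1 with p under 0.05. These shares are not compared, since some of the shared signs follow from the levels of the genes. Klk1b22 (2.9), Dnajc28 (1.27), BC018473 (0.81), Chp2 (0.88), Herpud1 (0.45) and Rilpl2 (0.39) were the 6 positive genes. Klk1b22 and Dnajc28 were near 0 in AMPKa1-/- BMDMs and had little room to fall there, and Chp2 was listed at 0 in every LPS and LPS + Dex library, so their shared sign follows from their levels without LPS and is not counted as agreement between the sets. The same holds for Gm4735, the 1 negative gene. Fos had -0.02 under Dex, where its level rose with LPS in both genotypes, and Gatm had -0.58 (95% interval -1.38 to 0.22).

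Txnip and Arrdc4 had positive values in both sets. Without Dex these depended on the WT LPS libraries, with 1.33 for Txnip and 1.48 for Arrdc4 without replicate 2 and 0.44 and 0.75 without replicate 3. With Dex alone Txnip measured 496 to 568 FPKM in WT and 241 to 304 FPKM in AMPKa1-/- BMDMs, and with LPS + Dex 68.1 to 85.9 and 68.9 to 72.4 FPKM (interaction 0.81, 95% interval 0.45 to 1.17, adjusted p = 0.15). Arrdc4 measured 20.1 to 25.7 and 9.88 to 11.6 FPKM with Dex, and 5.68 to 7.48 and 6.04 to 6.34 FPKM with LPS + Dex (interaction 0.91, 95% interval 0.49 to 1.33, adjusted p = 0.16). In both genes the WT and AMPKa1-/- levels did not overlap without LPS and overlapped with it. Il12b (-1.08, 95% interval -2.01 to -0.15) and Nr1h3 (-0.65, -1.03 to -0.26) also kept their sign. Dusp16 turned from -0.52 without Dex to 0.71 (0.02 to 1.4). Ndufb11, of the respiratory chain, turned from 0.43 to -0.58 (-1.14 to -0.02). The ribosomal and respiratory chain lists did not keep their sign either. Their medians under Dex were -0.47 for cytosolic ribosomal protein genes and -0.42 for the respiratory chain, beside 0.06 for all genes. The NRF2 targets and redox genes had a median of -0.16 under Dex (20 tested), opposite in sign to that without Dex, and the HIF1 targets had -0.05 (16 tested). Interferon-stimulated antiviral genes had a median of -0.57 under Dex (30 tested) and the GTPases -0.45 (11 tested).

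**Figure D5:**
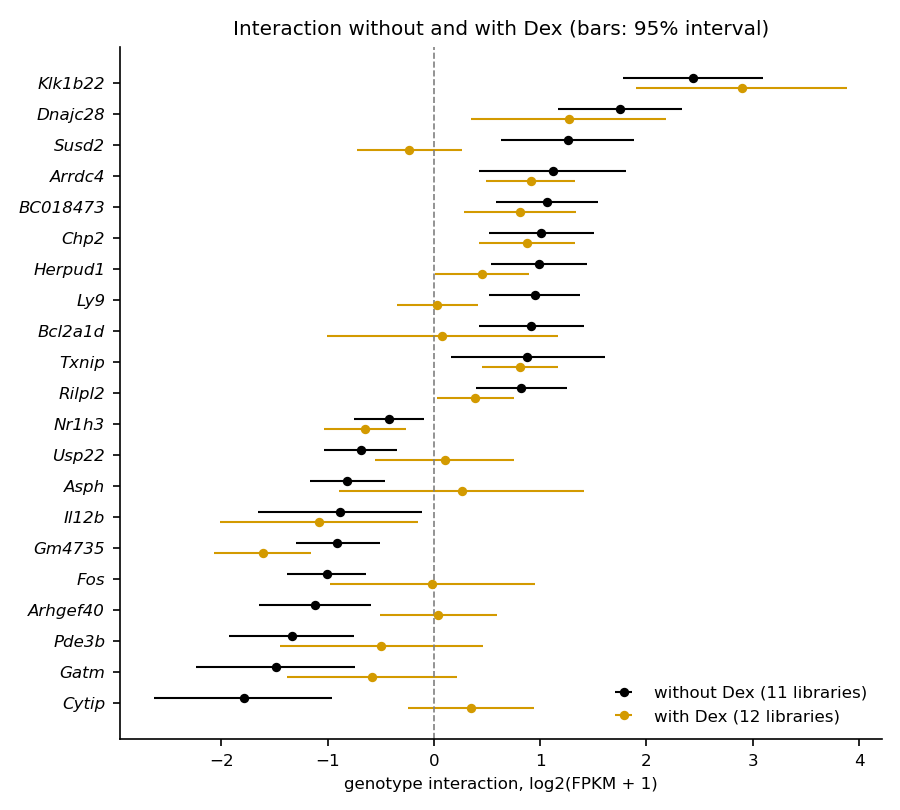
Interaction on the log2(FPKM + 1) scale without Dex (black, 11 libraries) and with Dex (yellow, 12 other libraries) for the named genes that were tested in both sets, with 95% intervals. Klk1b22, Dnajc28, Arrdc4, Txnip, BC018473 and Chp2 lie above 0 in both, Gm4735, Il12b and Nr1h3 lie below 0 in both, and the intervals of Fos and Cytip lie below 0 without Dex and include 0 with Dex.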

How the data were processed

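Gene-level FPKM values deposited by the authors (fragments scaled to gene length and library size, 47069 identifiers per library) were used unchanged. The submitters' processing notes name Bowtie2 2.2.3, TopHat2 2.0.12, HTSeq 0.6.1 and DESeq2, and the builds GRCm38 and mm10; gene symbols, positions and lengths came from GENCODE M21. Fragment totals were estimated from steps in low values, of which 55.1% to 59.2% were whole within 0.01 fragments, so no count test was run; 1 fragment on 1 kb was worth 0.042 to 0.0595 FPKM.

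Genes with a mean of at least 1 FPKM were fitted with limma 3.58.1 in R 4.3.3 on log2(FPKM + 1), where low genes show smaller changes than their FPKM do, with 1 mean for each of 4 groups, empirical Bayes with trend, 2-sided tests and Benjamini-Hochberg adjustment at 0.05 over all genes tested. The 12 Dex libraries were fitted separately. Named genes were up to 10 in each direction (called genes first, then smallest p), 3 from each of 25 lists, and 16 fixed readouts. The comparison, members and lists were chosen with earlier results of these data known. The fit was tested on simulated data. Alternatives were pseudocount, filter, scaling, weights, moderation, groups in the fit, replicate blocks and omitted libraries. The removal of the gene length trend and the joint omission of the 2 libraries that stood apart were chosen after seeing the data. Some genes that the rule names are not reported here.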

Additional observations from a re-analysis of the deposited data

Results flagged for a closer look

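Gm14461 and Gm4735 were the 2 genes that passed the interaction test in the libraries with Dex, at 1.87 and -1.61 on the log2 scale, and both calls were lost in most fits that left out 1 library. Gm4735 was at most 0.182 FPKM in the AMPKa1-/- libraries, so its value is the rise in WT and not a measured difference in response. Gm14461 fell from 9.35 to 12.2 FPKM in WT Dex to at most 0.25 FPKM in WT LPS + Dex, and from 2.03 to 2.88 FPKM to at most 0.208 FPKM in AMPKa1-/- BMDMs. It ended near 0 in each genotype, so its value follows from the levels with Dex alone. Both genes were already lower in AMPKa1-/- vehicle, by 1.53 and 3.04.

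In Herpud1 and Mir1898 every WT LPS library and every AMPKa1-/- LPS library lay on opposite sides of the vehicle mean, and the test of the difference did not pass after adjustment. Herpud1 had an interaction of 0.99 (limma, adjusted p = 0.61) and Mir1898 -2.01 (adjusted p = 0.75). Under Dex these values were 0.45 and 0.49, so that Mir1898 had the other sign there. Herpud1 did not move in opposite directions under Dex. With LPS it changed by 0.29 in WT (limma, adjusted p = 0.093) and rose by 0.74 in AMPKa1-/- BMDMs (adjusted p = 0.0009).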

How the results depend on the processing

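The slope between the responses and the total counts of genes called for LPS against vehicle in either genotype moved by less than the limits used in all 24 alternatives, and 577 of 600 list medians did so too. The split into higher and lower did move. In AMPKa1-/- BMDMs it went from 2416 higher and 5151 lower to 3824 and 3468 with the length trend removed. The interaction had 22 calls without a filter on low values, 1 with centred libraries, 1 with library weights and 0 to 7 when 1 library was left out, with 7 without AMPKa1-/- LPS replicate 2. Same-numbered vehicle and LPS libraries had deviation correlations of 0.2326, 0.1275 and 0.3082 in AMPKa1-/- and under 0 in WT, so the numbers were not taken as pairs, and the replicate block left 0 calls for the interaction. For the genotypes with LPS the block on the replicate number gave 7 calls (29 without it), no filter 78, quantile normalization 19, no moderation 4, library weights 6, 8 groups in the fit 54, 12 groups 87, both libraries that stood apart left out 113, and leaving out 1 library 5 to 77. For the genotypes in vehicle (22) the counts were 14 at a mean of at least 5 FPKM, 215 with weights, 49 with 8 and 49 with 12 groups, 43 with both libraries left out and 11 to 34 leaving out 1. Under Dex (2) they were 0 with a pseudocount of 0.1, at least 5 FPKM, centring and either replicate block, 16 without a filter, 6 with quantile normalization, 8 without moderation, 996 with weights, 11 with the length trend removed and 0 to 7 leaving out 1.

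Among list medians, centring gave 0.11 for alternative activation, 0.18 for the TCA cycle, 0.23 for the respiratory chain, 0.07 for fatty acid oxidation and 0.17 for autophagy. Quantile normalization gave -0.06 for AMPK subunits and 0.05 for fatty acid oxidation, and a pseudocount of 0.1 gave -0.17 for alternative activation. With the length trend removed, fatty acid oxidation had 0.02, autophagy 0.18 and mTORC1 0.2. With both libraries left out, alternative activation had -0.18, glycolysis 0.15, HIF1 targets -0.16 and fatty acid oxidation 0.02. Leaving out 1 library gave -0.16 to 0.02 for alternative activation, -0.23 to 0.12 for glycolysis, -0.62 to -0.17 for HIF1 targets, 0.01 to 0.15 for the TCA cycle, -0.01 to 0.23 for the respiratory chain and -0.11 to 0.03 for fatty acid oxidation. The cause was not tested. Fits with 1 WT LPS library left assume that it varies like the other groups. The median 95% interval of 0.49 to each side is not adjusted over genes, and interactions larger than 1 in size also missed the threshold.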
